A study of Mus musculus with 15 samples.

Results

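The bulk genotype comparison of this mouse study consists of a pair of libraries out of 15: ovalbumin-specific CD8+ T cells taken from E.G7 tumours of wild-type mice, and the same cells from mice labelled as B7S1 knockout (KO). The E.G7 line is an EL4 lymphoma of T cell origin engineered to produce ovalbumin (OVA), a model antigen. Female C57BL/6 mice aged 6 to 8 weeks were given 1000000 tumour cells under the skin, no treatment followed, and tumour-infiltrating cells were sorted on day 21, at 9 to 11 weeks of age. The labels give 6 mice per group but 1 library per genotype, and they do not say whether the cells of the mice were pooled, how OVA-specific cells were recognised, or how B7S1 was deleted. Both libraries were taken by their titles, WT and KO. With 1 library on each side there was no replicate check, so values and ratios are described and no p-value is given.

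B7S1, also called B7-H4 and encoded by Vtcn1, is a ligand of the B7 family that myeloid and some tumour cells can display and that dampens T cell activation through a receptor on the T cell. CD8+ T cells that stay in a tumour gain inhibitory receptors such as PD-1 and Tim-3, and over time they can lose cytokine output while keeping some killing molecules, a state called exhaustion. The comparison asks how the transcripts of the tumour-specific T cells differ when their host is labelled as lacking this ligand.

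Values are in RPKM, reads scaled to transcript length and to the sequenced total, and differences are log2((KO + 1)/(WT + 1)), called the log2 ratio below. Genes with at least 5 RPKM in the higher library were compared, 6075 of 17205 listed. The values carried whole-read steps from which total reads of 11095280 (WT) and 12050366 (labelled KO) followed, with the read count of 98.7% of the compared genes. Intervals given on ratios of RPKM are exact (Clopper-Pearson) 95% intervals on those reads. They cover counting error only, because amplified reads without molecular identifiers are not independent molecules, and they say nothing of mice or of library preparation.

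The sorted cells were checked against their label first. The T cell receptor chains and the CD8 co-receptor stood high in both libraries: Cd3g was at 4817 RPKM in WT and 6022 RPKM in the library labelled KO, and Cd8b1 at 957 and 1116 RPKM. Cd4 was at 0.0874 and 0.107 RPKM, close to 0 in both. Of the lists of B cell, NK and innate lymphoid, stromal and endothelial, and erythroid and platelet markers, no listed member reached 5 RPKM in either library. Their summed levels were 2.73 and 3.50 RPKM for B cells, 4.87 and 2.72 for NK cells, 1.98 and 4.70 for stroma, and 1.35 and 1.05 for erythroid cells, in the order WT and labelled KO. Myeloid markers summed to 321 RPKM in WT and 363 RPKM in the library labelled KO. Among them Lyz2, the lysozyme of macrophages and neutrophils, was at 0.171 and 9.81 RPKM, and Csf1r and Mrc1, macrophage receptors, were at or near 0 in both. Fcer1g, Cd68 and Cd74, which activated T cells can also express, made up most of the sum. Of 10 compared myeloid markers, however, 4 were past 2-fold higher in the library labelled KO and 1 lower. The 4 were Lyz2, H2-Aa (11.4 and 46.0 RPKM), Tyrobp (19.1 and 45.3 RPKM) and Ctss (6.04 and 15.2 RPKM). What part myeloid RNA had in any difference was not tested. Rag1, Rag2, Dntt and Ptcra, genes of immature T cells used here as a check for tumour cell RNA, were all under 0.4 RPKM. The 2 members of that list that reached 5 RPKM were lower in the library labelled KO, Cd1d1 at 17.1 and 8.46 RPKM and Gypc at 18.6 and 5.51 RPKM (log2 ratio -1.59), and what part tumour cell RNA had in any difference was not tested.

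Vtcn1 itself went against the genotype label. Its transcript was near 0 in the wild-type library, at 0.0687 RPKM from 2 reads, and at 9.46 RPKM from 299 reads in the library labelled KO. Vtcn1 lies on chromosome 3 from 100825459 to 100896922 of GRCm38 (mm10), and a gene-level value does not show which exons the reads covered, so a transcript that escapes a partial deletion would be counted too. Whether the labels of both libraries were exchanged cannot be told from these values either, and an exchange would turn every direction given here. The library is therefore called the library labelled KO throughout, and each direction below rests on that label. Vtcn1 values in other pairs of libraries with the same labels are given below. Within 2 Mb of Vtcn1, 6 genes including Vtcn1 were compared. Of these 3, again including Vtcn1, were at least 2-fold higher and 1 at least 2-fold lower in the library labelled KO. The higher ones were Vtcn1, Man1a2 (2.38 and 7.88 RPKM) and Slc22a15, and the lower one was Ttf2 (10.7 and 4.48 RPKM). Each was under 5 RPKM in one library and was compared only through the other. The filter thus favoured their directions, and these counts are not read against the shares of all genes. Among these neighbours Slc22a15, a membrane transporter, was at 3.38 and 19.1 RPKM, and Cd2, an adhesion receptor of T cells, was nearly level at 538 and 562 RPKM.

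Across all compared genes, 651 (10.7%) were at least 2-fold higher in the library labelled KO and 738 (12.1%) at least 2-fold lower, with a median log2 ratio of -0.02. These 2 percentages are the background, over all levels together, against which the counts below are read. After the libraries were set to the same upper quartile, which shifted the median of all genes to -0.27, the counts were 459 higher and 1043 lower. The share past 2-fold depended on level. Of genes between 5 and 10 RPKM in the higher library 35.1% passed 2-fold in one direction or the other, against 3.87% of the 413 genes at 300 RPKM or more. The background is thus too low for lists of low genes and too high for lists of abundant ones. Any gene under 5 RPKM in one library was compared only through the other, so the filter favoured its direction. Ywhah, at 93.2 and 188 RPKM, was just past the limit and Rad51ap1, at 4.32 and 9.63 RPKM, just short of it. On the lower side Med11, at 391 and 195 RPKM, was just past it and Wrb, at 16.4 and 7.69 RPKM, just short.

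**Figure D1:**
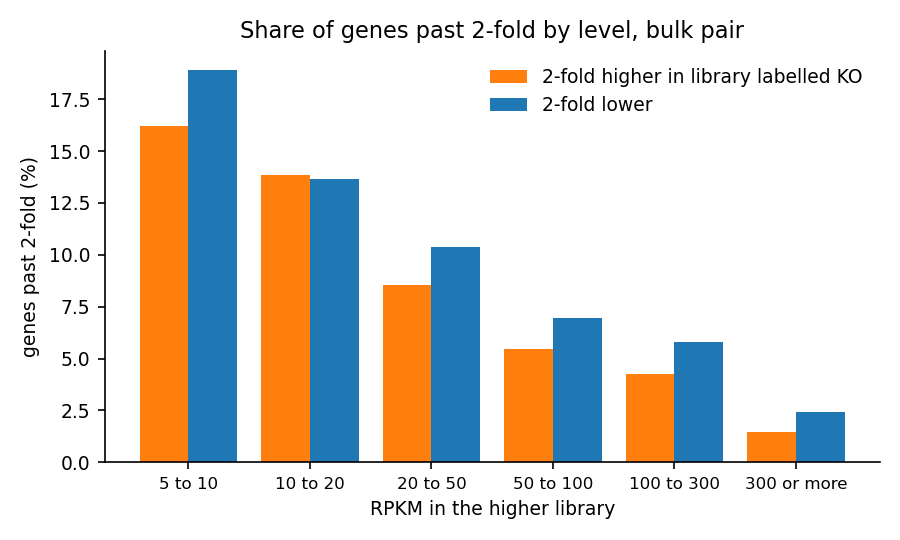
Share of compared genes (percent, vertical axis) that were at least 2-fold higher (orange) or lower (blue) in the library labelled KO than in WT, by RPKM in the higher of both libraries (horizontal axis). The shares go from 16.2% higher and 18.9% lower at 5 to 10 RPKM to 1.45% and 2.42% at 300 RPKM or more.

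Several of the most abundant genes past 2-fold belonged to chemokine signalling. Chemokines are small secreted proteins that steer cells through receptors on their surface, and activated CD8+ T cells are a strong source of Ccl3, Ccl4 and Ccl5, which draw in other leukocytes. Ccl4 was at 5573 RPKM in WT and 14264 RPKM in the library labelled KO, a log2 ratio of 1.36 and an RPKM ratio of 2.56 (95% interval 2.53 to 2.59). It lies on chromosome 11 from 83648624 to 83664683 of GRCm38. Ccl3, its neighbour and close relative, was at 1184 and 3249 RPKM (log2 ratio 1.46, RPKM ratio 2.74, interval 2.68 to 2.81). Both were thus higher in the library labelled KO by a like factor. Ccl5, the most abundant chemokine, was at 27116 and 36630 RPKM, a log2 ratio of 0.43 and short of 2-fold.

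Other chemokines went the opposite way. Xcl1, which attracts cross-presenting dendritic cells, was at 1189 RPKM in WT and 565 RPKM in the library labelled KO (log2 ratio -1.07). Ccl1, a ligand of Ccr8, stood at 757 and 382 RPKM, a log2 ratio of -0.99 just short of 2-fold. Cxcl10, an interferon-induced ligand of Cxcr3, was at 85.6 and 6.08 RPKM (log2 ratio -3.61). Ccl17, more often a product of dendritic cells, had 32 reads (5.33 RPKM) in WT and none in the library labelled KO. Of the 8 chemokines compared, 2 were past 2-fold higher and 3 past 2-fold lower, so the family did not move one way.

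Among receptors that guide migration, Ccr7 had the log2 ratio furthest from 0, although by RPKM ratio S1pr4 (10.9, interval 7.5 to 16.4) was further from level. Ccr7 carries naive and central memory T cells, and mature dendritic cells, toward lymph nodes. It was at 893 RPKM in WT and 131 RPKM in the library labelled KO, or 19562 and 3127 reads, a log2 ratio of -2.76. WT was 6.79 times as high (interval 6.54 to 7.06). Ccr7 lies on chromosome 11 from 99144199 to 99155077. In the other direction, Cxcr6, a receptor of effector and resident T cells, was at 485 and 1118 RPKM (log2 ratio 1.20), and S1pr4, a sphingosine phosphate receptor of lymphocytes, was at 1.13 and 12.3 RPKM (log2 ratio 2.64). Cx3cr1, a fractalkine receptor of effector cells, was also higher, at 6.27 and 14.5 RPKM. Cxcr3, the receptor for Cxcl10, was at 22 and 9.96 RPKM (log2 ratio -1.07). Ccr1, Ccr8 and Cxcr4 stayed within a log2 ratio of 0.2 on either side. Of 10 receptors compared, 3 were past 2-fold higher and 2 lower.

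Klrg1, an inhibitory lectin-like receptor of short-lived effector cells, was detected only in WT. It had 217 reads there (14.2 RPKM) and none in the library labelled KO, so WT was at least 78.6-fold higher, counting 3 reads as the limit that 0 reads allows in the library labelled KO. It lies on chromosome 6 from 122270596 to 122282833. Its relatives did not share this. Klrd1, which pairs with Klrc1 to form CD94/NKG2A, was at 2638 and 4043 RPKM (log2 ratio 0.62), Klrc1 at 353 and 414 RPKM, and Klrk1, encoding NKG2D, at 42.3 and 50.7 RPKM. Of the 10 killer lectin-like receptors compared, Klrb1a was past 2-fold higher (1.47 and 6.98 RPKM) and Klrg1 alone past 2-fold lower.

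**Figure D2:**
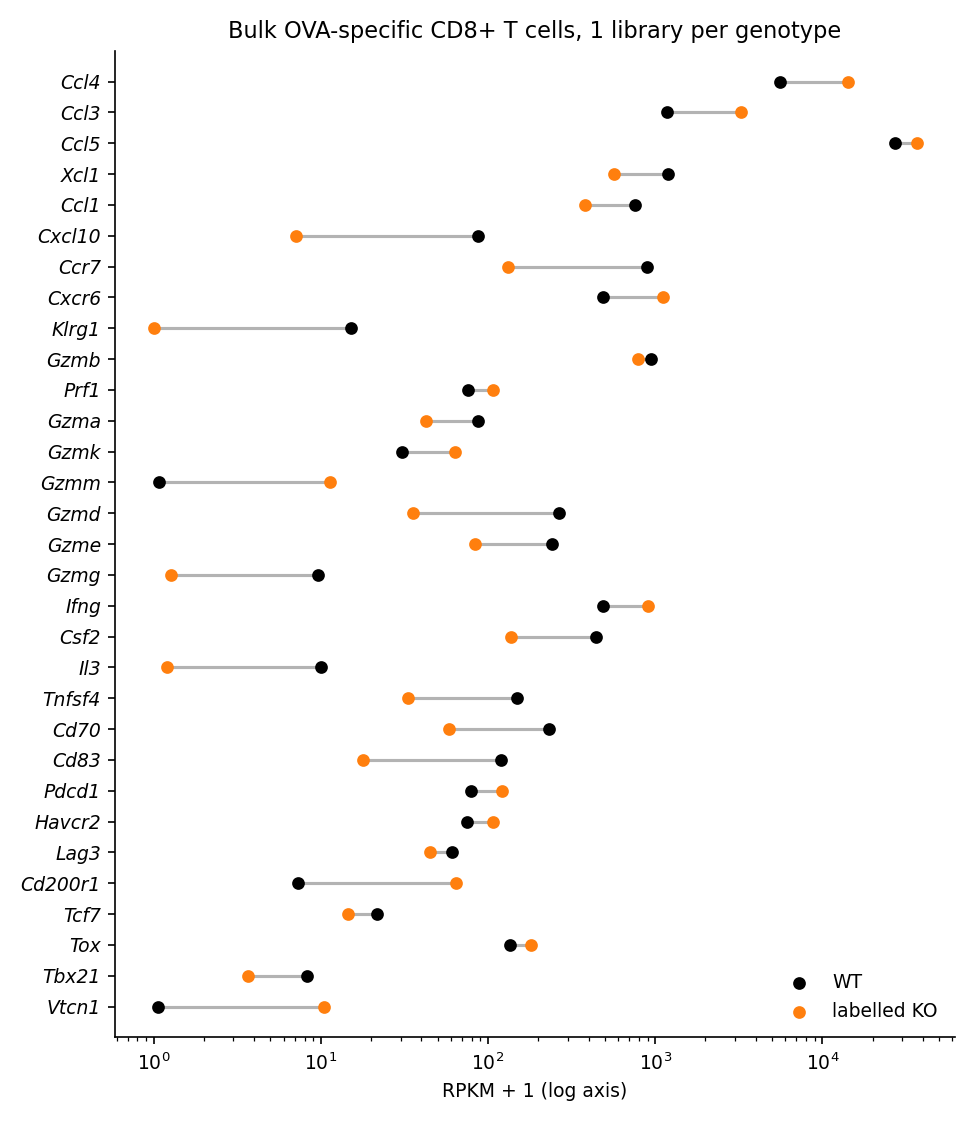
Level of 31 genes in WT (black) and the library labelled KO (orange), as RPKM + 1 on a log axis, 1 library each, with a line joining both values of a gene. Ccl4 and Ccl3 lie to the right in the library labelled KO, while Ccr7, Cxcl10, Gzmd, Csf2, Tnfsf4, Cd70 and Cd83 lie to the left, and Gzmb, Prf1, Pdcd1, Havcr2, Lag3 and Tox are close together.

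Granule genes, which encode the proteases and the pore former of killer cells, split by member. Gzmb, the main granzyme, was at 945 RPKM in WT and 784 RPKM in the library labelled KO (log2 ratio -0.27). Prf1, the pore former perforin, was at 75.4 and 106 RPKM (0.48), and Nkg7, a granule membrane protein, at 24836 and 29498 RPKM (0.25). None of these 3 passed 2-fold. Gzmd was at 265 and 34.8 RPKM (log2 ratio -2.89), Gzme at 239 and 82.8 RPKM (-1.52), and Gzmg at 8.62 and 0.265 RPKM (-2.93). Gzmf was at 374 and 194 RPKM (-0.94) and Gzmc at 83.4 and 69.8 RPKM (-0.25). Gzmb to Gzmg are neighbours in a cluster on chromosome 14 in the mouse. Gzmd to Gzmg are near-identical copies, so how their reads were divided among them is uncertain, but all 4 were lower in the library labelled KO.

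Among granzymes outside that cluster, Gzma was at 86.1 and 41.5 RPKM (log2 ratio -1.04), Gzmk at 29.5 and 62.6 RPKM (1.06), and Gzmm went from 1 read to 161 reads (0.0701 and 10.4 RPKM, log2 ratio 3.41). Gzma and Gzmk, neighbouring genes of tryptase-like granzymes, were therefore on opposite sides. Over the list, 2 of 19 compared granule and killing genes were past 2-fold higher and 4 lower, with a median log2 ratio of -0.14.

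Cytokine genes were divided as well. Ifng, the signature cytokine of CD8+ T cells, was at 487 RPKM in WT and 907 RPKM in the library labelled KO, a log2 ratio of 0.90 that fell short of 2-fold, while its RPKM ratio of 1.86 had a counting interval of 1.81 to 1.92. Tnf stayed low in both, at 0.382 and 2.01 RPKM. Lta, encoding lymphotoxin alpha, was at 4.94 and 13.8 RPKM (log2 ratio 1.32). By contrast, Csf2, encoding the myeloid growth factor GM-CSF, was at 442 and 135 RPKM (log2 ratio -1.70), or 5069 and 1686 reads. Its neighbour on chromosome 11, Il3, was at 9.02 and 0.195 RPKM, or 85 and 2 reads. Il2, a T cell growth factor, was at 8.78 and 3.82 RPKM (-1.02) and Ltb, lymphotoxin beta, at 8.19 and 2.74 RPKM (-1.30). In all, 1 of 10 compared cytokines was past 2-fold higher and 4 were lower, and the list's median was -0.60, against -0.02 for all genes. That median changed sign when only genes at 10 RPKM or more were kept. Il3, Il2 and Ltb were under 5 RPKM in the library labelled KO, and Lta was under 5 RPKM in WT. Each was compared only through its level in the other library, so the filter favoured its direction.

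The inhibitory receptors that define exhausted T cells were close to level. Pdcd1, encoding PD-1, was at 77.8 RPKM in WT and 121 RPKM in the library labelled KO (log2 ratio 0.63), and Havcr2, encoding Tim-3, at 73.8 and 106 RPKM (0.51). Lag3 was at 60.0 and 43.9 RPKM (-0.44), Tigit at 1284 and 1547 RPKM (0.27), and Ctla4 at 30.3 and 21.5 RPKM (-0.47). None of these 5 receptors passed 2-fold, and they lay on both sides of 0. Of 14 genes compared in this list, the exceptions were Cd200r1, an inhibitory receptor better known from myeloid cells, at 6.29 and 63.2 RPKM (log2 ratio 3.14), and Cd274, encoding the ligand PD-L1, at 13.7 and 5.16 RPKM (-1.25). Cd200r4, a close relative of Cd200r1 chosen after its values were seen, was at 4.72 and 50.2 RPKM, and reads shared between the copies could not be separated. The transcription factor Tox, which sustains the exhausted state, was at 134 and 180 RPKM (0.42). Maf and Ikzf3, also linked to that state, were higher in the library labelled KO, at 8.96 and 34.7 RPKM (1.84) and at 5.48 and 22.1 RPKM (1.83).

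Some costimulatory ligands of the TNF family were lower in the library labelled KO, without a like difference in their receptors. Tnfsf4, encoding OX40L, was at 149 RPKM in WT and 32.1 RPKM in the library labelled KO (log2 ratio -2.18). Cd70, the ligand of CD27, was at 231 and 57.3 RPKM (-1.99), and Tnfsf9, encoding 4-1BBL, at 78.9 and 41.8 RPKM (-0.90, short of 2-fold). Tnfrsf4, the OX40L receptor, was at 2152 and 1662 RPKM (-0.37), and Tnfrsf9, the 4-1BBL receptor, at 31.1 and 46.7 RPKM (0.57). Cd27, the receptor of Cd70, was higher, at 25.1 and 51.1 RPKM, its log2 ratio of 0.996 just short of 2-fold and its RPKM ratio 2.03 (interval 1.82 to 2.28). Cd40lg, another such ligand, was at 5.91 and 4.25 RPKM (-0.40), with an interval on its RPKM ratio of 0.51 to 1.01. These ligands are induced on activated T cells as well as on antigen-presenting cells. Cd83, an activation marker of dendritic cells and lymphocytes, was at 118 and 16.8 RPKM (-2.74). Of 16 costimulatory genes compared, 2 (Tnfsf4 and Cd70) were past 2-fold lower and none higher.

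Genes tied to naive and memory T cells were mostly lower in the library labelled KO: 14 of 17 compared had a log2 ratio below 0, 5 were past 2-fold lower and 1 past 2-fold higher. The list's median log2 ratio was -0.56, and it stayed below 0 under every scaling tried. Besides Ccr7, these 5 were Dapl1, found in resting memory cells, at 182 and 49.6 RPKM (-1.85), Foxo1, a factor that sustains Ccr7 and Il7r, at 24.7 and 10.2 RPKM (-1.20), Socs3, a cytokine signal inhibitor, at 8.45 and 2.48 RPKM (-1.44), and Ltb. Tcf7, the factor that marks stem-like T cells, was at 20.6 and 13.6 RPKM (-0.56), and Il7r, the IL-7 receptor, at 63.6 and 44.8 RPKM (-0.50), both within 2-fold. Bcl2, a survival factor, was the exception at 7.17 and 25.0 RPKM (1.67). Socs3 and Ltb, under 5 RPKM in the library labelled KO, were compared only because of their level in WT.

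The effector differentiation list also leaned toward WT, with 2 of 17 past 2-fold higher and 5 lower, and a median of -0.11. Tbx21, encoding T-bet, was at 7.24 and 2.67 RPKM (log2 ratio -1.17). Irf8 was at 134 and 56.2 RPKM (-1.24), Rora at 15.3 and 2.30 RPKM (-2.30), and Bhlhe40, a factor that promotes cytokine output, at 426 and 208 RPKM (-1.03). These 4 transcription factors, with Klrg1, made up the 5. Klrg1, Tbx21 and Rora, under 5 RPKM in the library labelled KO, were compared only because of their level in WT. Id2, the effector factor at the highest level, was at 1886 and 2007 RPKM (0.09). Receptors for interleukins fell on both sides, 3 of 14 higher and 3 lower. Il12rb2, Il27ra and Il10ra were higher, Il10ra at 22.3 and 47.4 RPKM. Il21r, at 74.1 and 20.3 RPKM (-1.82), Il4ra, at 11.8 and 3.29 RPKM (-1.58), and Il17ra, at 7.90 and 3.05 RPKM, were lower. Of these, Il4ra and Il17ra were compared only because of their level in WT.

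Interferon-stimulated genes had the highest median of the lists with at least 5 compared members. Type I and type II interferons act through STAT factors that bind the interferon-stimulated response element (ISRE) or related sites in promoters. Of 18 members compared, 9 were past 2-fold higher in the library labelled KO and 1 lower, and the median log2 ratio was 0.82. However, 7 of the 9 were under 20 RPKM in both libraries, the range in which 35.1% (5 to 10 RPKM) or 27.5% (10 to 20 RPKM) of all genes passed 2-fold in some direction, and 14 further members of the list did not reach 5 RPKM. Ifit1, a sensor of foreign RNA, was at 0.444 and 7.42 RPKM (13 and 236 reads), Oas3, an RNA-activated synthetase, at 0.439 and 6.86 RPKM (23 and 390 reads), and Bst2, the tetherin that holds viruses at the surface, at 1.56 and 12.4 RPKM (15 and 129 reads). The more abundant Rtp4 was at 6.02 and 21.9 RPKM (log2 ratio 1.71) and Ifi35 at 27.0 and 82.1 RPKM (1.57). Usp18 (4.36 and 10.1 RPKM), Ddx58 (4.96 and 13.2 RPKM), Zbp1 (5.89 and 13.1 RPKM) and Gbp2 (5.14 and 14.7 RPKM) were also among the 9. Ifit1, Oas3, Bst2, Usp18 and Ddx58 were under 5 RPKM in WT. They were compared only because of their level in the library labelled KO, so their direction was favoured by the filter. Isg15, an ubiquitin-like protein, was within 2-fold at 5.72 and 6.70 RPKM (0.20). Members under 5 RPKM, which were not compared, lay on both sides: Mx1 was at 1.06 and 2.98 RPKM, Ifit3 at 3.38 and 0.748 RPKM and Rsad2 at 1.55 and 0.219 RPKM. Cxcl10, the 1 lower member, had the log2 ratio furthest from 0 of all 18. By RPKM ratio Ifit1 (16.7) and Oas3 (15.6) were further from level than Cxcl10, for which WT was 14.1 times as high.

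To show what these genes carry in front of their starts, the 250 bases before the RefSeq start (GRCm38) of the 3 members with the largest log2 ratios and of Cxcl10 are given 5′ to 3′ on the gene's strand. Capitals mark matches to the ISRE core, which is TTTC, any 2 bases and TTTC, on either strand (GAAA, any 2 bases and GAAA when read on the other), and overlapping matches run together. The windows are chr19:34640639-34640888 (plus strand) for Ifit1, chr5:120777660-120777909 (minus) for Oas3, chr8:71537473-71537722 (minus) for Bst2 and chr5:92348890-92349139 (minus) for Cxcl10.
Ifit1: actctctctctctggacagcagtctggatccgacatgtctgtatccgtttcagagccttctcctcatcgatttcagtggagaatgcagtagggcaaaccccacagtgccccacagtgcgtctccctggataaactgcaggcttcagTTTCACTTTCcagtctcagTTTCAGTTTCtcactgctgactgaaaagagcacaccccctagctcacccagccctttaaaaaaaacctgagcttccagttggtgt
Oas3: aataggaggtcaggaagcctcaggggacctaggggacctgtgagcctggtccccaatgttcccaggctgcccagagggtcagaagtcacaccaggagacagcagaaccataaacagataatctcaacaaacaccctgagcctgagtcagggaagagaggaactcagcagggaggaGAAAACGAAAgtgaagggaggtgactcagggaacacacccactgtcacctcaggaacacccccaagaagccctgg
Bst2: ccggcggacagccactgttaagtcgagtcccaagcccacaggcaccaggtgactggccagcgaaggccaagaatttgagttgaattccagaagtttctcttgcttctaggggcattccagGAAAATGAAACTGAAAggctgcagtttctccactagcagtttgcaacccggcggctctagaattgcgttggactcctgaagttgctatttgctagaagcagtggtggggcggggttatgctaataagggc
Cxcl10: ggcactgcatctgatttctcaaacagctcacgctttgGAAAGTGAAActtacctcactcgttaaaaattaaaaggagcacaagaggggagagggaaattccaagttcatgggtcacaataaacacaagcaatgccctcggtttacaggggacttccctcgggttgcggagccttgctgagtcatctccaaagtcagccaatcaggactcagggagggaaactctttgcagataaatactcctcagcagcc
Ifit1 and Bst2 held 2 matches each, and Oas3 and Cxcl10 held 1. The core stood in 978 of 32851 promoter windows of this length (2.98%). Among the compared interferon-stimulated genes, 13 were in the RefSeq table and 9 of them had a match, 4 of the 6 that were past 2-fold higher and 5 of the 7 that were not, Cxcl10 among the latter. Presence of the core thus did not separate the members that were higher from the others.

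Immediate early genes, switched on within minutes by receptor signals or by tissue handling, were split. Fos, a part of AP-1, was at 46.1 RPKM in WT and 185 RPKM in the library labelled KO (log2 ratio 1.98), Dusp1, a MAP kinase phosphatase, at 268 and 662 RPKM (1.30), and Cd69, an early activation and retention marker, at 276 and 618 RPKM (1.16). Jun (22.3 and 30.1 RPKM), Egr1 (26.1 and 30.9 RPKM) and Nr4a1 (19.2 and 16.0 RPKM), which usually accompany Fos, were within 2-fold. Gadd45b, a stress-induced gene, was at 127 and 36.5 RPKM (-1.77), and Fosl2 and Ier2 were also past 2-fold lower. In total 5 of 24 were higher and 3 lower. How long each tumour was handled before sorting is not given in the sources used here.

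Cell cycle genes differed by member, and the extreme ratios rested on few reads in WT. Ccnb2, a mitotic cyclin, had 2 reads in WT and 628 reads in the library labelled KO (0.117 and 33.8 RPKM), an RPKM ratio of 289 with a counting interval of 79.7 to 2393, the largest log2 ratio of all genes ranked (4.96). Aurka, a mitotic kinase, had 1 and 125 reads. Ccnb1, the partner cyclin, had 74 and 371 reads (2.88 and 13.3 RPKM, log2 ratio 1.88), and Hmmr, a spindle protein, 65 and 320 reads (1.64). Other genes of the same programme were nearly level: Mki67, the proliferation marker, was at 8.73 and 12.1 RPKM (0.42), Top2a at 16.0 and 14.5 RPKM (-0.14), and Cdk1 at 10.0 and 16.1 RPKM (0.64). Of 14 mitotic genes 4 were past 2-fold higher and 1 lower, and of 16 DNA replication genes 1 and 1. The 4 higher mitotic genes, and Gins1 (3.36 and 25.1 RPKM) among the replication genes, were under 5 RPKM in WT. They were compared only because of their level in the library labelled KO. Ccne1, the 1 lower mitotic gene (12.2 and 4.97 RPKM), was compared only because of its level in WT.

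Lists of respiratory chain and chaperone genes stayed within 2-fold. None of 29 oxidative phosphorylation genes and none of 20 heat shock genes passed 2-fold in either direction, with medians of -0.07 and -0.27. Many of the oxidative phosphorylation genes were abundant, such as Ndufa1 at 1557 and 1418 RPKM. Few genes at such levels passed 2-fold in either direction, 10.1% at 100 to 300 RPKM and 3.87% at 300 RPKM or more. Of the heat shock genes 16 of 20 lay below 0. Hspa1a and Hsp90ab1, chaperones, were at 204 and 116 RPKM and at 896 and 614 RPKM. Of 16 glycolytic genes, Hk2, the inducible hexokinase, was the 1 past 2-fold lower, at 27.2 and 7.02 RPKM (-1.81), and Aldoc, a minor aldolase, the 1 higher, while Gapdh was at 1105 and 944 RPKM. In the list of the T cell receptor complex and CD8, 1 of 18 was past 2-fold higher and 1 lower, and the first was Lck, a kinase of proximal signalling, at 4.73 and 15.0 RPKM.

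**Figure D3:**
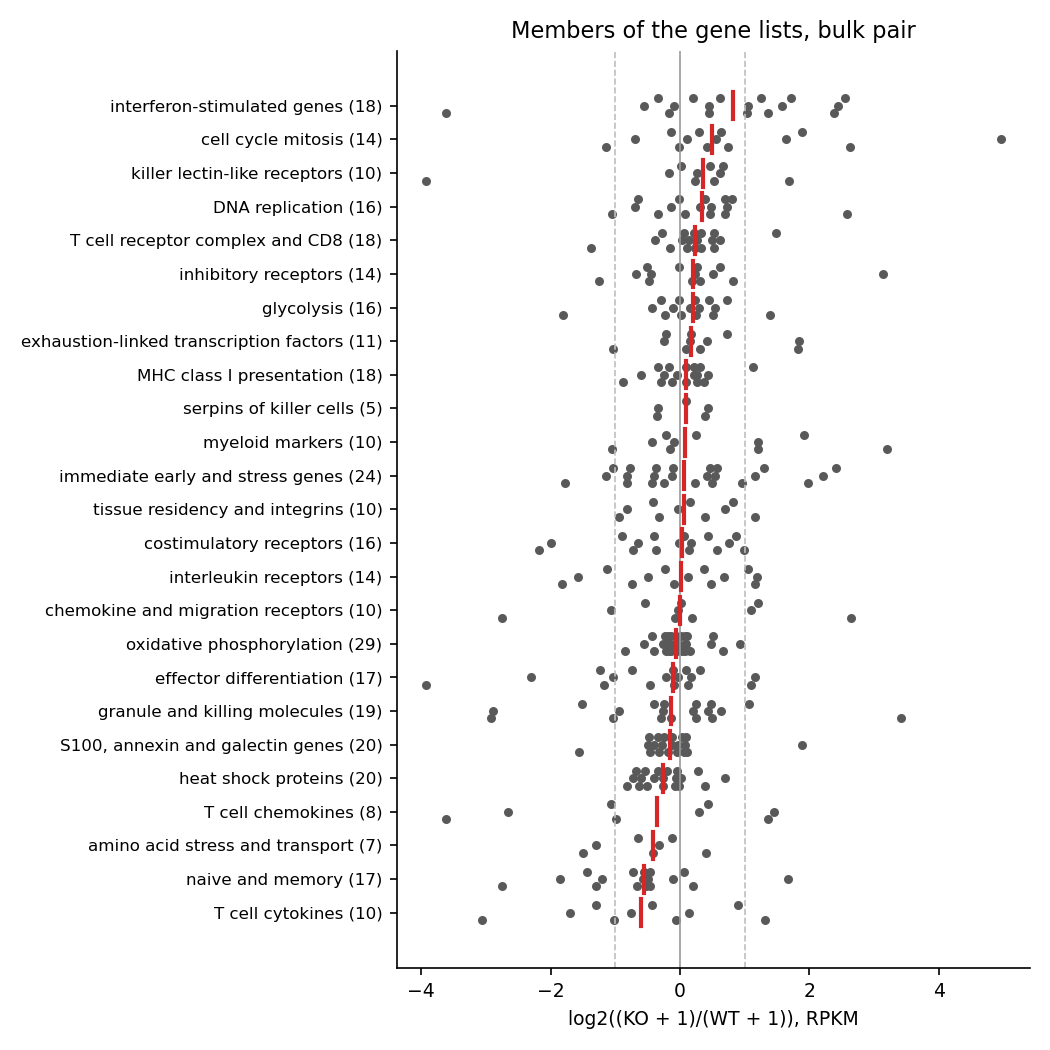
Log2((KO + 1)/(WT + 1)) in RPKM (horizontal axis) of every compared member (grey points) of the gene lists with at least 5 compared members, the B7 family ligands left out, with the list's median in red, dashed lines at 2-fold and the number of members in parentheses. Medians run from -0.60 for T cell cytokines to 0.82 for interferon-stimulated genes, and all members of the oxidative phosphorylation and heat shock lists lie between the dashed lines.

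Ranked by ratio alone, with a floor of 10 RPKM in the higher library, the 12 extreme genes on each side were, by contrast, mostly genes with few or no reads in one library. After Ccnb2, the highest ratios included Fabp4, a lipid-binding protein of fat cells and macrophages, at 0 RPKM in WT and 13.2 RPKM in the library labelled KO. Its fitted transcript length exceeded the span of the gene, so no read count is given. Msrb2, a mitochondrial reductase, had 0 and 173 reads, and Galk1, galactokinase, had 2 and 216 reads. Mettl21a, Lenep, Chaf1b, Gzmm, Cerkl, Rdh13, Zfp146 and Tesk2 completed the 12. On the other side Tmem251 went from 3570 to 87 reads (log2 ratio -4.91) and Gpr18, a lipid receptor of lymphocytes, from 1532 to 109 (104 and 6.78 RPKM, -3.75). Tmem251 aside, Gpr18 was the only gene among these 12 with more than 1000 reads in WT. Blvrb, a biliverdin reductase, had 187 and 0 reads and Acbd7 had 87 and 0, and Coprs, Gstm5, Klrg1, Fkbp7, Rpl39l, Adh4, Fahd1 and Ercc8 completed that side. Genes past 2-fold had a median of 445 reads over both libraries, against 1040 for all compared genes.

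Restricting to abundant genes left a short set. At 100 RPKM or more, 28 of 930 genes were past 2-fold higher and 40 lower. At 300 RPKM or more, the 6 and 10 of 413 included Ccl3, Ccl4, Cxcr6, Cd69 and Dusp1 on the higher side and Ccr7, Xcl1 and Csf2 on the lower, chosen after their values were seen. Also there were Cst3, a protease inhibitor common in myeloid cells, at 3906 and 1796 RPKM (log2 ratio -1.12), Tff1, a mucosal trefoil peptide, at 559 and 217 RPKM (-1.36), and Sqstm1, the autophagy adaptor p62, at 318 and 132 RPKM (-1.26). Ccr7 had the largest log2 ratio in size of the 413. In bulk samples a smaller share of cells carrying a transcript and less transcript per cell cannot be told apart.

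The series offers 3 other pairs with the same labels: PD-1+ CD8+ T cells of the same tumour model sorted into B7S1R_SP (B7S1R+ Tim-3-), TIM-3_SP (Tim-3+ B7S1R-) and DN (neither), each with 1 library labelled KO and the wild-type library numbered 2 from the same table. Their values are FPKM, fragments in place of reads, so only ratios within a pair are set beside the bulk pair. At least 2-fold higher and lower in the library labelled KO were 10.7% and 13.6% of compared genes in B7S1R_SP, 6.9% and 13.9% in TIM-3_SP, and 13.4% and 36.8% in DN, where the median of all genes was -0.57. For scale, the wild-type libraries numbered 2 and 1 of one population, which sit in separate tables, differed by 2-fold or more at 63.7% of genes in B7S1R_SP, 60.2% in TIM-3_SP and 25.6% in DN, against 22.9% in the bulk pair.

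Genes past 2-fold in the bulk pair were spread over both directions in these pairs. Of the bulk-higher genes compared in B7S1R_SP, 49 of 410 were also past 2-fold higher and 63 lower, in TIM-3_SP 21 and 64 of 389, and in DN 54 and 168 of 443. For the bulk-lower genes, 58 of 367 were also lower and 37 higher in B7S1R_SP, 84 and 40 of 366 in TIM-3_SP, and 200 and 51 of 453 in DN. Over all genes compared in both the bulk pair and a sorted pair, 7.62% were higher and 10.6% lower in B7S1R_SP, 4.83% and 12.1% in TIM-3_SP, and 12.0% and 33.6% in DN. Bulk-higher genes were higher in 12.0%, 5.40% and 12.2% and lower in 15.4%, 16.5% and 37.9%, in the same order. Bulk-lower genes were lower in 15.8%, 23% and 44.2% and higher in 10.1%, 10.9% and 11.3%. Both sets thus exceeded all genes in the share that was lower in each sorted pair. They also exceeded all genes in the share that was higher, except for the bulk-lower genes in DN. Both sets were therefore more spread than all genes, mostly in both directions, and these differences were not tested. Pearson's r across genes between the bulk log2 ratios and those of each pair was 0.0015 in B7S1R_SP, 0.00022 in TIM-3_SP and 0.031 in DN, over 4329, 4248 and 4766 genes that share libraries and are not independent.

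Few genes held one direction in all 4 pairs. All 3 sorted pairs were past 2-fold higher at 0.694% of genes and past 2-fold lower at 2.14%. Of 330 bulk-higher genes compared in all 3, 4 were higher in each (1.21%): Alox5ap, an activator of leukotriene synthesis, Pbk, a mitotic kinase, H2-Aa, an MHC class II chain, and the transcript A930005H10Rik. Of 284 bulk-lower genes, 11 were lower in each (3.87%), among them Tnfsf4, Cd70, Cd81, Gadd45b, Nfkbib, Bhlhe40, Tff1, Rps6kb2, Smim3 and Wrap53. These genes were named after their values were seen.

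Tnfsf4 had like ratios in all 4 pairs. Its bulk log2 ratio of -2.18 stood beside -2.57 in B7S1R_SP (7.89 FPKM in wild type and 0.50 FPKM labelled KO), -2.05 in TIM-3_SP (69.0 and 15.9 FPKM) and -2.40 in DN (45.7 and 7.85 FPKM). Cd70 followed it, with -1.99 in bulk and -2.80, -2.44 and -1.29 in the same order. Both ligands were therefore lower with the KO label in all 4 pairs, although in DN the median of all genes was itself -0.57. The wild-type libraries numbered 1, however, held Tnfsf4 at 87.9, 7.41 and 74.4 FPKM and Cd70 at 56.9, 3.38 and 85.7 FPKM. In TIM-3_SP the library labelled KO, with Cd70 at 7.29 FPKM, was thus above that one for both. Nfkbib, an inhibitor of NF-kB, had log2 ratios of -2.68 in bulk and -1.38, -1.76 and -1.69 in the sorted pairs.

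H2-Aa is also a myeloid marker, so the values of others of that kind are set beside it. Its bulk levels were 11.4 RPKM in WT and 46.0 RPKM labelled KO, with Lyz2 at 0.171 and 9.81 RPKM. Other class II genes were closer to level in bulk, H2-Ab1 at 19.9 and 23.8 RPKM, H2-Eb1 at 16.3 and 14.5 RPKM and Cd74 at 59.8 and 44.2 RPKM. In B7S1R_SP it was at 17.6 and 871 FPKM while Lyz2 was at 122 and 2440 FPKM. In TIM-3_SP and DN H2-Aa was at 2.60 and 6.68 FPKM and at 0 and 7.98 FPKM, while Lyz2 was lower in the library labelled KO, at 15.4 and 5.32 FPKM and at 16.4 and 0.70 FPKM. The wild-type libraries numbered 1 held H2-Aa at 325, 5.01 and 43.8 FPKM in B7S1R_SP, TIM-3_SP and DN, the last above the library labelled KO. Over the whole myeloid list, 4 of 10 compared members were past 2-fold higher in the bulk library labelled KO (Lyz2, H2-Aa, Tyrobp and Ctss) and 1 lower (Cd14), and what part myeloid RNA had in these differences was not tested.

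The abundant genes of the bulk pair behaved unevenly. Ccl4 had log2 ratios of 1.55 in B7S1R_SP, 0.27 in TIM-3_SP and 0.90 in DN beside 1.36 in bulk, above 0 in each. Ccl3 had 1.85, 0.22 and -0.73 beside 1.46. Ccr7 had -0.72, -0.44 and -2.85 beside -2.76, below 0 in each but past 2-fold only in bulk and DN. Klrg1 stayed under 5 FPKM in all 6 of these sorted libraries and could not be compared. Vtcn1 also stayed under 5 FPKM. It was at 0.16, 2.50 and 1.02 FPKM in the libraries labelled KO of B7S1R_SP, TIM-3_SP and DN. In each wild-type library numbered 2 it was at 0 FPKM, so the direction was that of the bulk pair. What these low values mean for the labels was not tested. Gzmm was at 4.42, 6.04 and 11.2 FPKM in the libraries labelled KO against 0, 0.06 and 0 FPKM in the wild-type libraries numbered 2, but the wild-type libraries numbered 1 held up to 7.65 FPKM.

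**Figure D4:**
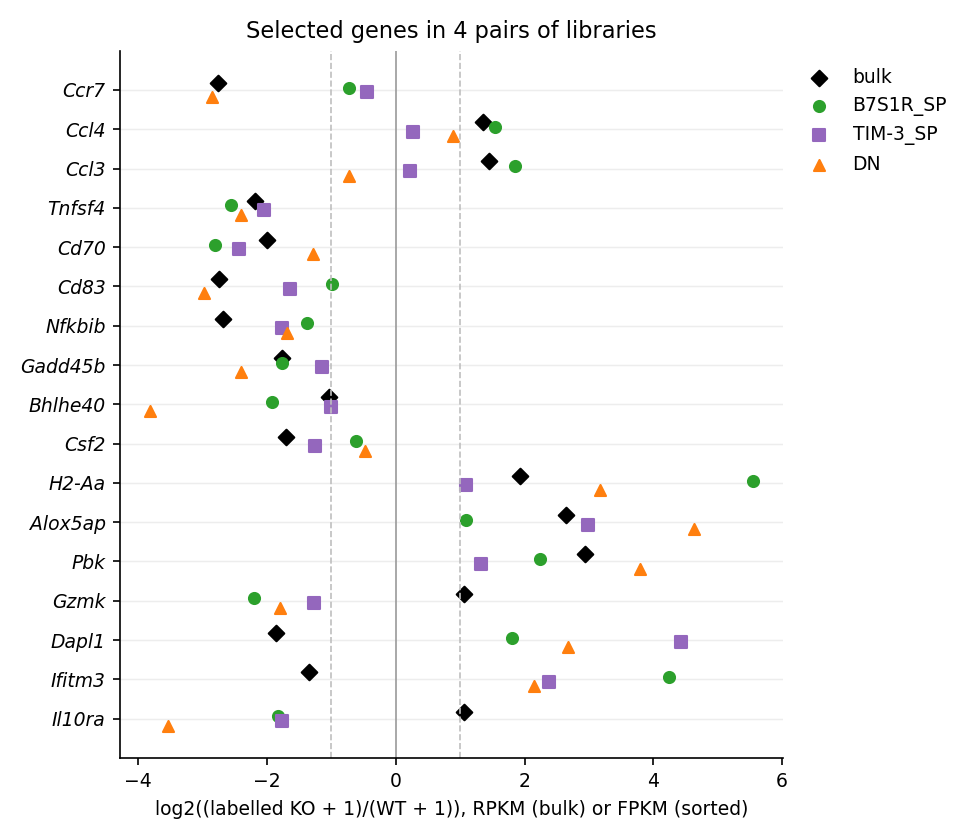
Log2((labelled KO + 1)/(WT + 1)) (horizontal axis, RPKM for the bulk pair, FPKM for the sorted pairs) of 17 genes in the bulk pair (black diamonds) and the B7S1R_SP, TIM-3_SP and DN pairs, with dashed lines at 2-fold. Tnfsf4, Cd70, Nfkbib, Gadd45b and Bhlhe40 lie left of -1 in all 4 pairs, H2-Aa, Alox5ap and Pbk right of 1, and Gzmk, Dapl1, Ifitm3 and Il10ra have the bulk pair on the opposite side from the others.

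A last pair bears on the same ligand in another way, with libraries titled Control and anti_B7S1. It was the most dispersed, with 37.9% of compared genes past 2-fold higher and 29% lower in anti_B7S1. Of the bulk-higher genes, 163 of 365 were past 2-fold higher and 125 lower, and of the bulk-lower genes 154 of 475 were lower and 196 higher. Each library was near 0 at genes that the other held at a high level. Gzmb was at 0.04 FPKM in Control and 788 FPKM in anti_B7S1, and Serpinb9b at 153 and 0 FPKM. Ccl4 was such a gene, at 0.09 and 537 FPKM, so its direction, that of the bulk pair, carries little weight. Whether transcripts were lost from 1 library was not tested. Ccr7 was at 5452 and 2318 FPKM (log2 ratio -1.23), also in the direction of the bulk pair. Tnfsf4 was at 1043 and 263 FPKM (-1.98) and Cd70 at 134 and 2.47 FPKM (-5.28), also lower. Gzmm, at 34.4 and 0.32 FPKM, and Cxcl10, at 43.5 and 207 FPKM, went the opposite way from the bulk pair.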

How the data were processed

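RNA was made into libraries with the SMARTer ultra low input kit and sequenced on Illumina HiSeq machines, per the labels' protocols. Per the file headers, the authors deposited RPKM for the bulk pair and FPKM for the sorted and antibody libraries. HISAT2, Bowtie2, RSEM and mm10 are named in the submitters' processing notes, without versions. Annotation, strand and filters are not given in the sources used here. The lowest bulk value, 0.001 RPKM, was read as 0, and 2 rows of a repeated symbol were left out. Groups came from the titles.

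From these values log2((KO + 1)/(WT + 1)) was computed with a pseudocount of 1 for genes reaching 5 in either library of a pair, and a gene was counted at a log2 ratio of 1 or more either way. The pseudocount understates ratios of low genes. No test was run, since each group has 1 library. Ratios of RPKM between low genes were whole-number fractions times one constant, which gave total reads and, with a transcript length per gene, read counts for 5999 compared genes. The recovery was tested on simulated data. Each length was a multiple of the smallest one that fitted, taken as nearest to an annotated transcript. Some read counts may therefore be too high by a whole factor, with intervals and limits too narrow or too far from level. Intervals are 95%, and 3 reads stand for the limit of a count of 0. Gene positions and promoters are from RefSeq on GRCm38, and annotated transcript lengths are from GENCODE.

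Named genes were a panel of 33, the 12 largest ratios each way at 10 RPKM or more (predicted genes, pseudogenes, small RNAs, histones and receptor variable segments left out), and up to 4 members with the largest ratio in each of 32 lists. Further list members, abundant genes and genes shared by the sorted pairs were chosen after their values were seen. Some genes are not reported here. The comparison, the genes named and the lists were chosen with earlier results of these data known. Alternatives were other pseudocounts, filters and scalings, and the mean of both wild-type sorted libraries. Python 3.11.15, pandas 2.3.3, numpy 2.4.6, scipy 1.17.1 and matplotlib 3.10.9 were used.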

Additional observations from a re-analysis of the deposited data

Results flagged for a closer look

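In 10 genes the bulk pair passed 2-fold in one direction and all 3 sorted pairs passed it in the other; the difference between bulk and sorted pairs was not tested. They were 7 of 330 bulk-higher and 3 of 284 bulk-lower genes compared in all 3 sorted pairs, 2.12% and 1.06%, near the 2.14% of all genes that were lower and the 0.694% that were higher in all 3.

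Among those higher in the bulk library labelled KO and lower in the 3 sorted ones were Gzmk, a granzyme (bulk log2 ratio 1.06, with -2.20, -1.28 and -1.80 in B7S1R_SP, TIM-3_SP and DN), Il10ra, the IL-10 receptor (1.06, with -1.83, -1.77 and -3.54), Tmem62 (2.83), Chst12 (1.14), Cdk5rap3 (1.04) and Lypla2 (1.03). Lower in bulk and higher in the sorted libraries labelled KO were Dapl1, found in resting memory cells (-1.85, with 1.80, 4.44 and 2.68), Ifitm3, an interferon-induced membrane protein (-1.34, with 4.24, 2.38 and 2.15), and Gm11346 (-1.44). For comparison, 15 genes kept the bulk direction in all 3 sorted pairs.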

How the results depend on the processing

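No paired analysis was possible because each group of the bulk comparison has 1 library. The counts of 651 higher and 738 lower genes moved with the level at which genes were admitted: 318 and 387 with a pseudocount of 5 RPKM, 391 and 435 at 10 RPKM or more, and 1154 and 1296 both at 1 RPKM or more and with no filter. A pseudocount of 0.1 RPKM gave 729 and 847, rescaling both libraries to one total 746 and 833, and centring on the median 671 and 715. An equal upper quartile gave 459 and 1043, which turned a near-even split into mostly lower genes. Over 2027 combinations of 228 named genes and a setting, the 158 genes past 2-fold kept their sign. This was fixed in advance and is no sign of robustness. Pseudocounts and filters cannot turn the sign of a ratio, and the scalings shifted ratios by far less than 2-fold. Id2 and Traf2, short of 2-fold, turned below 0 with the equal upper quartile (-0.15 and -0.11). In 70 combinations, 35 of them with the pseudocount of 5 RPKM, 50 genes fell short of 2-fold, Med11 in 3 of the settings. Medians of 16 lists changed sign in 24 combinations, 11 of them with the equal upper quartile, while those of the interferon-stimulated, naive and memory, and cell cycle lists did not. A kept sign is not a kept size: the interferon-stimulated median was much smaller with no filter on low values. In that list and the cell cycle list, several higher genes were compared only through their level in the library labelled KO. Several lower genes of the cytokine, naive and memory, and effector differentiation lists were likewise compared only through their level in WT. Genes that kept the bulk direction in all 3 sorted pairs numbered 15, but 70 when wild type was the mean of both libraries of a population, where 53 went the opposite way; there 12 of 416 bulk-higher genes were higher in all 3, against 2.73% of all genes, and 58 of 402 bulk-lower genes lower, against 11.4%. The number was 13 when sorted ratios were centred on their median, an alternative chosen after seeing the data. Tnfsf4 and Cd70 were among the 15 but not among the 70, and Tnfsf4 but not Cd70 was among the 13. Depth limits genes near 5 RPKM, where a transcript of 2 kb has 111 reads in WT and 121 in the library labelled KO.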

Other observations

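A list of NF-kB subunits and regulators was drawn up after Tnfsf4, Cd70, Cd83 and Nfkbib had been seen to be lower, so its direction is no independent evidence. Of its 19 genes 16 reached 5 RPKM. Among these none was past 2-fold higher and 5 were past 2-fold lower in the bulk library labelled KO, 14 lay below 0, and the median log2 ratio was -0.52 against -0.02 for all genes. Rel, the subunit c-Rel, was at 91.3 RPKM in WT and 31.2 RPKM in the library labelled KO (-1.52). Relb, the subunit RelB, was at 45.1 and 11.3 RPKM (-1.91), and Bcl3, a nuclear cofactor, at 13.9 and 3.66 RPKM (-1.67). The adaptor Tnip2 was at 14.3 and 0.971 RPKM (-2.96) and the inhibitor Nfkbib at 85.9 and 12.6 RPKM (-2.68). Rela and Nfkb1, the most widely used subunits, were within 2-fold at 58.2 and 45.9 RPKM and at 43.1 and 30.8 RPKM, and Tnip3 was above 0 at 21.4 and 40.1 RPKM. Icam1, an adhesion molecule induced by this pathway, was at 106 and 34.5 RPKM (-1.60).

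Genes past 2-fold were slightly shorter than the rest, with median transcript lengths of 2207.5 bases (higher) and 2277.5 bases (lower) against 2507 bases within 2-fold, and also lower in level, with medians of 12.3, 12.6 and 22.9 RPKM in the higher library.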
